A study of Mus musculus with 167 samples.

Results

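The spread of gene expression between separate tumours of one mouse was measured in asbestos-induced tumours of Collaborative Cross (CC) MexTAg mice. The tumours were those of each mouse from which 2 or more libraries were sequenced, identified by a shared strain and mouse code. They came to 70 tumours of 29 mice and 19 strains, of 167 tumours, 119 mice and 35 strains in the whole series. Mice with several tumours contributed 83 libraries from 35 mice before 7 libraries were left out. Those 7 had been set apart in earlier work on the same data, because their expression lay nearer to another strain than to the one on their label. Of the 29 mice, 20 had 2 tumours, 8 had 3 tumours and 1 mouse, CC074-B3, had 6. In 7 strains at least 2 such mice were available, together 17 mice with 40 tumours.

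Each mouse was the offspring of a male of one CC strain, from a panel of inbred lines with mixed founder genomes, and a MexTAg female. In MexTAg mice the mesothelin promoter, active in the mesothelial lining of the body cavities, drives the large T antigen of SV40, and all groups compared here are such CC-MexTAg offspring. All received 2 injections into the peritoneal cavity, each with 3 mg of Wittenoom crocidolite (blue) asbestos, given 1 month apart, and no other treatment. The labels place 19 of the mice (45 tumours) above and 10 (25 tumours) below the median survival. Whole tumours were homogenised, so each library holds the RNA of cancer cells together with that of stroma, immune cells and any attached organ.

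Mesothelioma arises from the mesothelium and often grows as many nodules over the peritoneum or pleura. Large T antigen binds and disables the p53 and Rb proteins, and loss of the Cdkn2a locus and of the Hippo pathway brake Nf2 is common in the human disease. Nodules in one animal share the germline, the asbestos dose and the age at harvest, so a comparison of tumours within a mouse measures the spread that remains once these are held in common.

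The 70 libraries held 15946306 to 35399287 counts, with a median of 23023788. Each value below is in CPM, the read count scaled to a common library total and not corrected for gene length, or on the log2 CPM scale. The markers of the labelled tumour type were detected in all 70 libraries, with mesothelin (Msln) at a lowest, median and highest level of 1.84, 15.2 and 384 CPM and the mesothelial transcription factor Wt1 at 0.251 to 304 CPM. Genes of other tissues exceeded 1% of the counts in 9 libraries. The highest shares were 6.47% lung epithelium genes in CC059-E2 tumour 2 (95% Wilson interval 6.46% to 6.48%, counting error only) and 6.01% skeletal muscle genes in GIT-K1 tumour 2. The 2 libraries of GIT-K1 could be assigned to that mouse but not to a single sample record. Seminal vesicle RNA (Svs5) was at 121 to 258 CPM in 10 libraries and at 0 in the other 60. Svs5 and the kidney gene Umod, at 2 CPM or more in 10 libraries, were used to sort the libraries into trace divisions. In 20 mice all tumours fell into one trace division, and in 9 mice they did not.

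Tumours of one mouse resembled each other more than tumours of different mice of the same strain. The distance between a pair of tumours was taken as the median, over 12571 genes with a mean of at least 5 CPM, of the absolute difference in log2 CPM. Its median was 0.252 over the 59 pairs from one mouse (range 0.0844 to 0.797), 0.505 over the 85 pairs from different mice of one strain (0.280 to 0.975) and 0.621 over the 2271 pairs from different strains (0.273 to 1.17). Averaged over the 7 strains with at least 2 such mice, the distance between mice exceeded that within mice by 0.199. The one-sided permutation p was 1e-05, the smallest that 100000 permutations of the mouse labels within strains can give. The difference was positive in 7 of 7 strains, from 0.0550 in Boon to 0.314 in CC053. The 7 libraries left out had been set apart by their expression, which can favour closeness within a mouse. With them kept the averaged difference was 0.191 (one-sided permutation p = 1e-05). The distributions overlapped, because single mice held pairs as far apart as those from different strains. The tumours of one mouse are the replicates in this test and in the gene test between mice of a strain. The error of both is the spread between nodules, part of which may be technical. In the tests between strains and between survival classes the mouse is the replicate. In most mice the tumours carry consecutive library numbers, and what part shared handling had in their likeness was not tested.

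With the 7 libraries left out, the nearest library to 57 of the 70 tumours was another tumour of the same mouse. For 12 tumours the nearest was a tumour of another strain, and for 1, tumour 2 of CC053-A1, it was a tumour of another CC053 mouse, CC053-G3. The 13 came from 8 mice, and both tumours of CIS-E2, CIS-G3, KAV-A3 and CC053-A1 were among them.

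**Figure D1:**
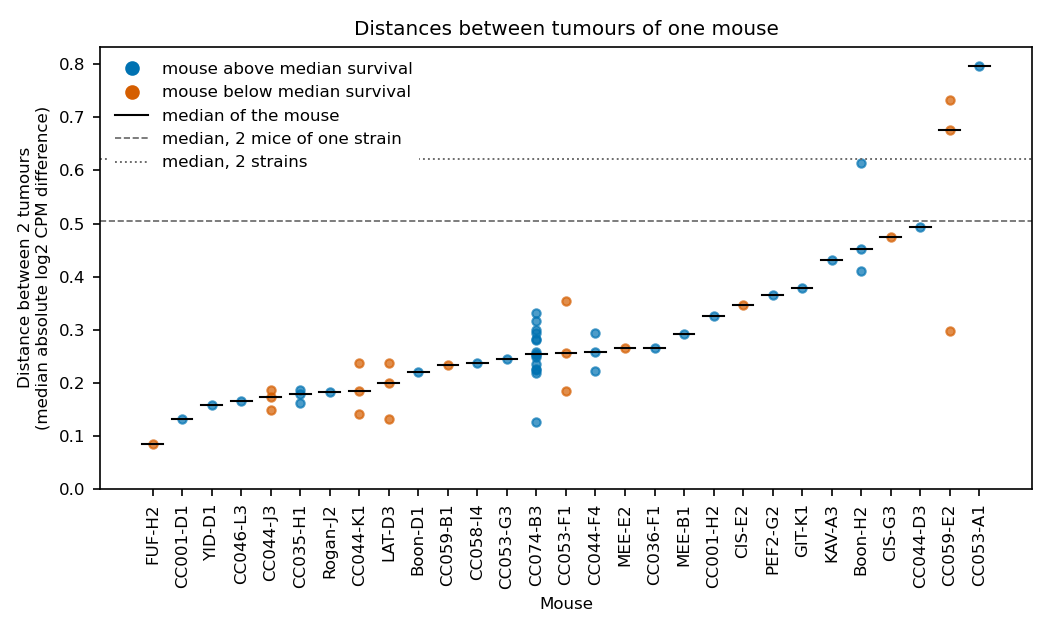
Distance between 2 tumours of one mouse (y axis, median absolute log2 CPM difference) for each of the 29 mice (x axis, ordered by their median). Each point is a pair of tumours, coloured by whether the mouse was above or below the median survival, each short bar is the median of a mouse, and the dashed and dotted lines are the medians of pairs from different mice of one strain (0.505) and from different strains (0.621). The pairs of FUF-H2 (0.0844) and CC053-A1 (0.797) mark the ends of the range.

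The mice differed widely in how alike their tumours were. The median distance per mouse ran from 0.0844 in FUF-H2 to 0.797 in CC053-A1, with a median of 0.256 over mice and 6 mice above 0.4. In FUF-H2 1.19% of the genes differed more than 2-fold between the tumours, and in CC053-A1 42.2% (5311 genes) did. The other 5 mice above 0.4 were CC059-E2 (0.677), CC044-D3 (0.494), CIS-G3 (0.475), Boon-H2 (0.453) and KAV-A3 (0.430). CC059-E2 and CC053-A1 held 14.55% and 12.98% of the within-mouse sum of squares over all genes, and Boon-H2 held 8.65%. In CC059-E2 tumour 2, the library rich in lung genes, stood apart from tumours 1 and 3, which were 0.298 from each other.

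The FUF-H2 pair was close in marker genes that differed within other mice. Mesothelin (Msln) was at 366 and 384 CPM, the proliferation marker Mki67 at 456 and 414 CPM, the tumour suppressor Cdkn2a at 254 and 277 CPM and the antibody light chain gene Igkc at 1.85 and 1.44 CPM. Its squared differences in counts were 2.09 times what counting alone gives, the lowest ratio of the 59 pairs, the next being 5.99. The labels give the libraries as 2 tumours, and they were kept as such.

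Mice labelled below and above the median survival did not differ detectably in how far their tumours lay apart. The median distance per mouse was 0.289 ± 0.173 (SD, n = 10) below and 0.307 ± 0.158 (SD, n = 19) above the median. The difference, below minus above, was -0.0180, with a 95% interval from -0.146 to 0.110 and a two-sided permutation p of 0.787. CC044, CC053 and MEE, with 9 of the mice, were the 3 strains that held both classes, and within them it was -0.199 (permutation p = 0.128). In mice of one trace division it was -0.105 (permutation p = 0.159), and without CC053-A1 it was 0.0103.

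The variance of each gene was then split into parts within mice, between mice of a strain and between strains. The median within-mouse SD over the 12571 genes was 0.335 on the log2 scale (jackknife SE over mice 0.0368), which corresponds to 1.26-fold. Its quartiles were 0.242 and 0.574, and its extremes 0.101 and 4.69. Counting error alone would give a median SD of 0.0592, and it made up 3.15% of the within-mouse variance of the median gene. A median of 27.4% of the variance lay within mice (SE 5.04), 41.3% between mice of a strain (SE 12.1) and 27.8% between strains (SE 12.5). The largest of the 3 parts was the within-mouse part for 2021 genes, the part between mice for 6535 and the part between strains for 4015. The part between mice rests on 10 degrees of freedom and the within-mouse part on 41.

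Genes at low levels spread more. The 3143 genes with the lowest mean level had a median within-mouse SD of 0.523 and the 3143 with the highest level 0.298. The SD is pooled over mice, so a few mice can bring about a high value. An SD of at least 1, where 1 SD corresponds to 2-fold, was reached by 905 genes, or 7.2% of those tested. It was found for 15.7% of the 3143 genes of lowest level and 3.5% of the 3143 of highest level. By gene type, 6.66% of 12215 protein-coding genes and 19% of 279 pseudogenes reached it. More than 50% of the variance lay within mice for 1073 genes, or 8.54%.

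The steadiest genes varied by less than 2-fold in each mouse. Fbxw2, a substrate receptor of a ubiquitin ligase, had the lowest within-mouse SD, 0.101, with a lowest, median and highest level of 46.7, 66.2 and 89.2 CPM over the 70 tumours. Msl1, a subunit of a histone acetyltransferase complex, followed at 0.108, and the cochaperone Dnajc14 and Rexo4 at 0.110 each. In 0 of 29 mice did any of these 4 genes vary more than 2-fold.

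Gene lists for 38 pathways and cell types were compared by the median within-mouse SD of their members, and 2 lists, lung epithelium and Y-linked genes, were added after values had been seen. No member of the kidney list reached 5 CPM. Of the other 37 lists of the first set, 32 had a median SD above the 0.335 of all genes and 13 had a median of at least 1. Those 13 were 8 lists of other tissues, 4 of leukocytes or the chemokines that organise them, and the list of smooth muscle genes. Machinery lists lay at the other end, with a median SD of 0.242 for oxidative phosphorylation, 0.249 for the proteasome, 0.253 for splicing and 0.312 for ribosomal proteins.

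**Figure D2:**
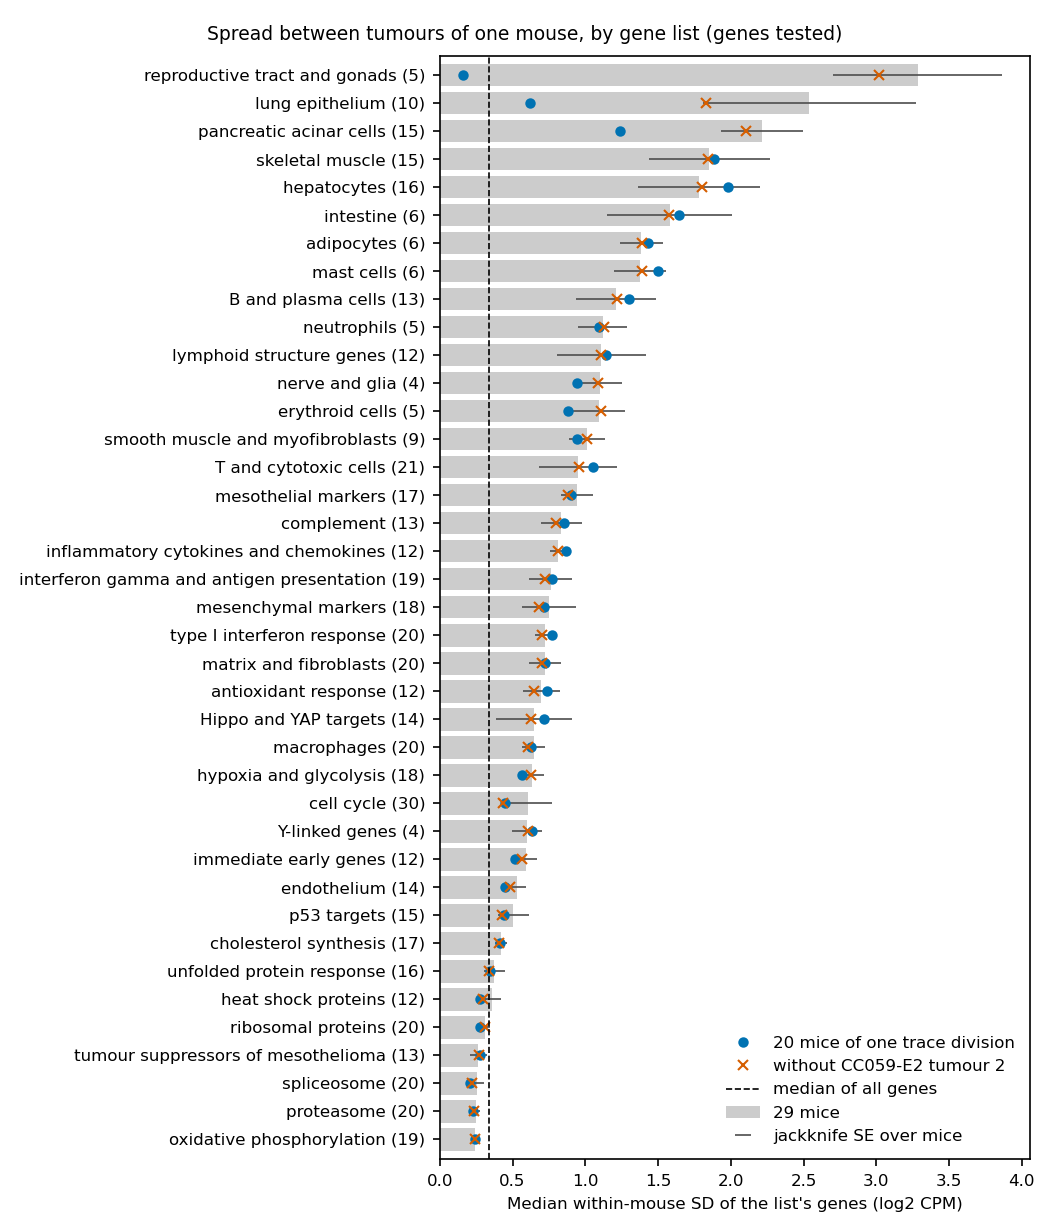
Median within-mouse SD (x axis, log2 CPM) of the tested members of each gene list (number tested in brackets), as bars with the jackknife SE over mice, and the median of all genes (0.335) as a dashed line. Points give the median in the 20 mice of one trace division and crosses the median without CC059-E2 tumour 2. Among the 20 mice the reproductive tract list falls from 3.28 to 0.158 and the lung list from 2.54 to 0.617. Oxidative phosphorylation stays at 0.242. The divisions were drawn in part by Svs5, a reproductive tract gene found in the libraries with Sftpc, so these 2 falls follow from that choice. The acinar list, high in some of the same libraries, falls from 2.22 to 1.24, in part for the same reason.

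Other-tissue genes varied most within a mouse. All 15 tested pancreatic acinar genes, all 16 hepatocyte genes, all 15 skeletal muscle genes and all 6 intestinal genes had an SD of at least 1, against 7.2% of all genes. The median SD was 2.22 (SE 0.282) for acinar, 1.78 (SE 0.418) for hepatocyte, 1.85 (SE 0.416) for skeletal muscle and 1.58 (SE 0.429) for intestinal genes. In the 20 mice of one trace division the acinar median was lower, at 1.24, and the hepatocyte and skeletal muscle medians were 1.98 and 1.89. In Boon-H2, CC044-F4, CC046-L3, CC059-E2, CIS-G3 and LAT-D3, the tumour highest for acinar genes was also the highest for reproductive tract genes. None of these mice is among the 20, so the fall to 1.24 follows in part from the choice of mice. Acinar scores also ranged widely in CC053-G3 (7.62) and CC044-K1 (6.86), without a wide range in reproductive tract genes. A list enters the comparison of lists only if its members pass 5 CPM on average. For other tissues a few rich libraries can bring this about: without PEF2-G2 too few intestinal genes passed to take a median.

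Few libraries held the high levels: hepatocyte genes passed 1% of counts in 3, skeletal muscle genes in 4 and acinar genes in 1. The albumin gene Alb was at 15680 and 18.9 CPM in tumours 1 and 2 of CC059-B1 and at 7331 and 14.6 CPM in those of MEE-E2. The skeletal actin gene Acta1 was at 21.9 and 11360 CPM in GIT-K1 and at 10.9 and 3550 CPM in Rogan-J2, while both tumours of CC046-L3 held skeletal muscle genes at 5.82% and 4.92% of counts. In PEF2-G2 the intestinal mucin Muc2 was at 2.03 CPM in tumour 1 and 2069 CPM in tumour 2. Pancreatic carboxypeptidase Cpa1 was at 1409, 42.4 and 11.7 CPM in CC044-K1. In bulk tissue, a larger number of cells of a type and more RNA per cell cannot be told apart.

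Fat cell genes differed in more mice. The adipocyte score, the mean log2 level of its 6 members, spread by more than 1 (2-fold) in 17 of 29 mice, with a median spread of 1.37. In CC036-F1 the adipokine Cfd (adipsin) was at 231 CPM in tumour 1 and 0.872 CPM in tumour 2, and adiponectin (Adipoq) was at 62.1 and 0.551 CPM. Of the adipocyte list, the fatty acid synthesis enzyme Acaca alone stayed close, at an SD of 0.32.

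Predicted genes and pseudogenes, whose reads can come from similar transcripts, reached the highest SDs (4.69 for Gm28439) and were not followed further. Among the other genes the highest SDs fell on seminal vesicle, lung and pancreas genes. Svs2 and Svs5, seminal vesicle secretions, had SDs of 3.59 and 3.51, the surfactant genes Sftpc, Sftpa1 and Sftpb 3.44, 3.25 and 3.21, the amylase Amy2a5 3.13, the lung phosphate transporter Slc34a2 2.95 and the digestive enzymes Ctrb1 and Cpa1 2.79 and 2.49. Among the 20 mice whose tumours shared one trace division, the SD of Svs2 was 0.158 and that of Sftpc 0.30. Svs5 was used to draw the divisions, so low values there follow from the choice of mice for genes high in the same libraries. Ctrb1 was at an SD of 1.27 there, Cpa1 at 1.37 and Amy2a5 at 2.50. The 10 tumours with Svs5 were also the 10 with Sftpc above 5 CPM. In 9 of them Sftpc was at 40.1 to 86.3 CPM, and in tumour 2 of CC059-E2 it was at 16820 CPM.

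**Figure D3:**
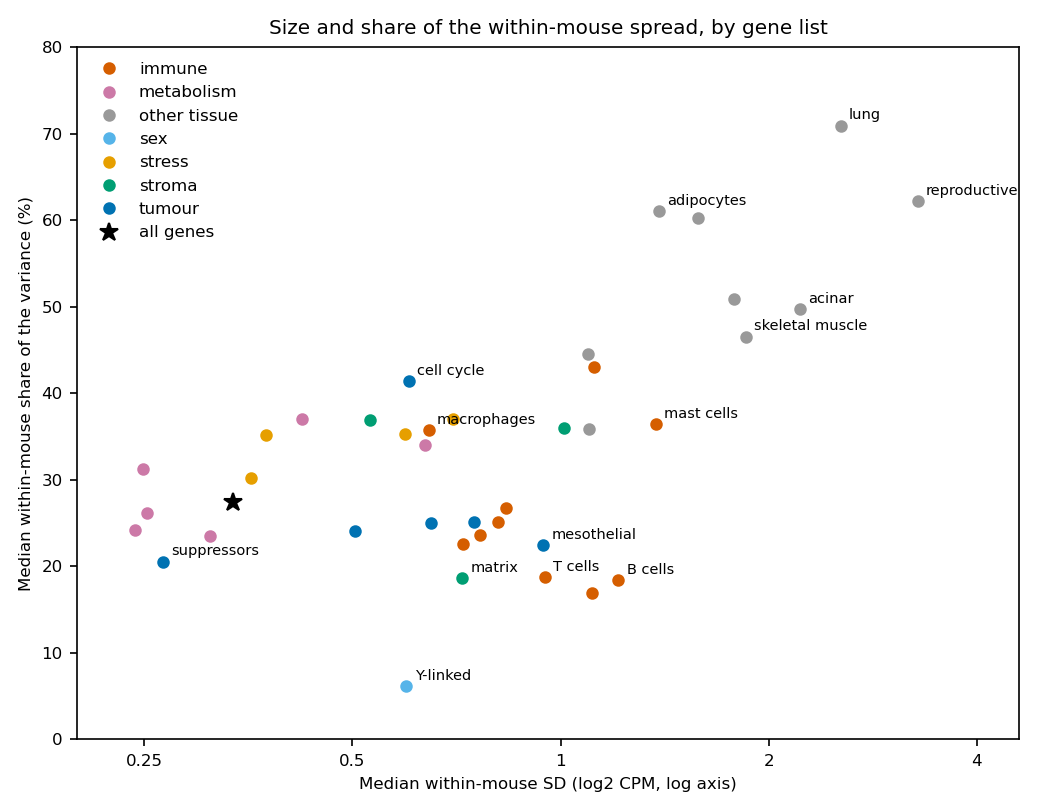
Median within-mouse SD of a list's genes (x axis, log2 CPM, log axis) against the median percentage of their variance within mice (y axis). Each point is a gene list, coloured by its kind, some are named, and the star is the median of all genes. Lists of other tissues lie at the upper right (lung at 70.9%), B cells combine a wide spread with a low share (18.4%), and Y-linked genes have the lowest share (6.13%).

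Other genes were uneven in most mice. The macrophage elastase Mmp12, measured between 0.637 and 243 CPM (median 8.72), differed more than 2-fold in 22 of 29 mice, with 69.5% of its variance within mice. Its level was 174 and 4.14 CPM in CC059-B1, 243 and 54.6 CPM in CC001-H2 and 74.8 and 220 CPM in CC058-I4. The fatty acid transporter Cd36 differed more than 2-fold in 21 mice, with 75.2% within mice. Mmp12 did not differ between mice of a strain beyond the spread within mice (edgeR quasi-likelihood test, adjusted p = 0.271).

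Lymphocyte genes spread widely in few mice. The median within-mouse SD was 1.21 (SE 0.274) for 13 B cell genes, 1.11 (SE 0.305) for 12 genes of lymphoid structures and 0.949 (SE 0.27) for 21 T cell genes. In these lists 13 of 13, 7 of 12 and 6 of 21 members reached an SD of 1. Yet a median of 18.4%, 16.8% and 18.8% of the variance lay within mice, below the 27.4% of all genes, since strains and mice differed still more. The B cell score spread by more than 1 in 9 of 29 mice.

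CC053-A1 was the most divided mouse. Its tumour 1 held the B cell antigen Ms4a1 (CD20) at 4.46 CPM, the T cell receptor subunit Cd3e at 1.46 CPM and the antibody gene Igkc at 108 CPM. Tumour 2 held them at 906, 113 and 11930 CPM. The class II invariant chain Cd74 went from 68.2 to 4277 CPM and the T zone chemokine Ccl21a from 5.02 to 356 CPM, while mesothelin (Msln) was at 267 CPM in tumour 1 and 1.84 CPM in tumour 2. Mki67 was higher in tumour 2, at 1850 against 292 CPM. Without this mouse the median SD was 0.969 for the B cell list, 0.819 for lymphoid structures, 0.693 for T cells and 0.637 for interferon gamma responses.

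A set of 15 tumours from 6 mice had a B cell score above 3, between 3.98 and 5.52, and the remaining 55 scored -5.07 to 2.00. The limit of 3 was chosen after the scores had been seen. The set was made up of all tumours of CC044-F4, CC044-J3, CC044-K1, CC053-F1 and CC053-G3, and of tumour 2 of CC053-A1. Tumour 2 of CC053-A1 thus lay with the tumours of its 2 strain mates, and tumour 1 did not. In the 15, Ms4a1 was at a lowest, median and highest level of 206, 347 and 915 CPM, against 0.119, 3.92 and 52.7 CPM elsewhere. Mesothelin (Msln) was at 1.84, 3.80 and 30.2 CPM in the 15 and at 2.20, 18.2 and 384 CPM elsewhere, so the groups overlapped. The whole mesothelial list scored -1.93 to 1.12 in the 15 and -2.04 to 3.39 elsewhere. What part the amounts of tumour and lymphoid tissue had in this was not tested.

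**Figure D4:**
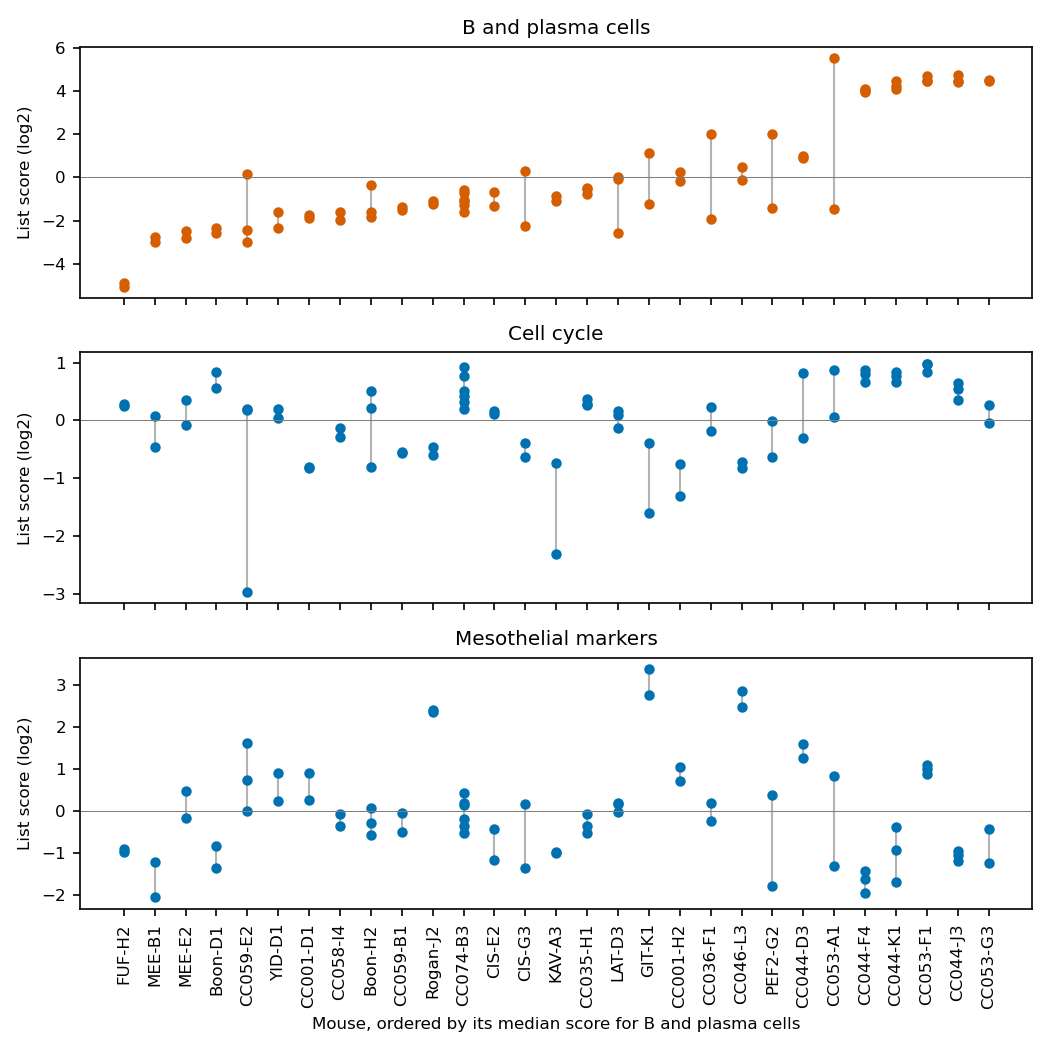
Scores of the B and plasma cell, cell cycle and mesothelial lists (y axes, mean log2 CPM of the members, centred over the 70 tumours) for every tumour. Each point is a tumour and a line joins those of one mouse, with mice ordered by their median B and plasma cell score. The B cell scores of CC053-A1 lie 6.97 apart, and the lowest cell cycle score, -2.96, is that of tumour 2 of CC059-E2.

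Mast cell genes were uneven in many mice, with a score spread above 1 in 17 of 29 (median spread 1.06). Mast cells are granulated tissue leukocytes that store proteases. The median SD was 1.37 (SE 0.179), and 5 of the 6 tested genes reached 1. The 6 tumours of CC074-B3 held the mast cell carboxypeptidase Cpa3 at 256, 4.15, 37.5, 6.35, 113 and 13.1 CPM (tumours 1, 2, 3, 6, 8 and 9) and the chymase Mcpt4 at 157.3, 2.56, 28.8, 2.70, 64.5 and 7.44 CPM. Tumours 1 and 8 were the high ones for both, and tumours 2 and 6 the low ones. The stem cell factor receptor Kit, also found on other cells, moved less, at an SD of 0.78. Without CC074-B3 the median SD of the list was 1.23.

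Neutrophil and macrophage genes gave a mixed picture. The neutrophil list had a median SD of 1.12 (SE 0.169) over 5 tested genes. S100a9, a subunit of the neutrophil protein calprotectin, differed more than 2-fold in 20 mice, with 53% of its variance within mice. The iron-binding protein Lcn2 was at 1076 and 13 CPM in CC044-D3 and at 18.3, 1316 and 9.51 CPM in CC059-E2, where the high value belonged to the lung-rich tumour 2. Lung epithelium also makes Lcn2, and its part was not tested. The 20 macrophage genes had a median SD of 0.645 (SE 0.0809). Among them the scavenger receptor Marco reached 1.87 and varied more than 2-fold in 19 mice, and the lysosomal glycoprotein Gpnmb reached 1.16. Osteopontin (Spp1), made by macrophages and tumour cells, was at 203 and 24570 CPM in KAV-A3 and at 9431, 287 and 12810 CPM in CC059-E2.

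Interferon response genes differed within several mice. Type I interferon genes had a median SD of 0.722 (SE 0.0652), with none of 20 at 1 or more, and their score spread by more than 1 in 8 mice. Ifit1, an antiviral RNA-binding protein, differed more than 2-fold in 15 mice, at 50.9 and 4.21 CPM in CC044-D3 and at 33.2 and 6.23 CPM in KAV-A3. Interferon gamma genes had a median SD of 0.764 (SE 0.148), led by the class II genes Cd74 (1.03) and H2-Aa (1.02), for both of which CC053-A1 held the largest part. Inflammatory cytokine genes had a median SD of 0.811 (SE 0.0524). The neutrophil attractant Cxcl5 was at 587 and 2.19 CPM in tumours 1 and 2 of CC053-A1, which supplied 54.1% of its within-mouse sum of squares.

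By the median SD of their genes, but not by every measure, markers of the tumour's own lineage varied more than the interferon and cytokine lists. The mesothelial list had a median SD of 0.944 (SE 0.112), with 7 of 17 members at 1 or more and a median of 22.4% of the variance within mice. The keratin Krt8 had the highest SD, 1.42. It was at 248, 27.03, 1318, 911, 126 and 17.8 CPM in the 6 tumours of CC074-B3 and at 9.44 and 854 CPM in PEF2-G2, whose tumour 2 was also the one rich in intestinal genes. Krt7 had the lowest SD of the list, 0.67. The mesothelial score spread by more than 1 in 5 mice.

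Mesenchymal, matrix and Hippo pathway genes had similar medians. The median SD was 0.749 (SE 0.184) for 18 genes of epithelial to mesenchymal transition, 0.720 (SE 0.11) for 20 matrix genes and 0.649 (SE 0.26) for 14 Hippo pathway genes, whose output is driven by the coactivator Yap1. None of the 18, 2 of the 20 and 3 of the 14 reached an SD of 1, against 7.2% of all genes. Tumour 1 of CC053-A1 held collagen XII (Col12a1) at 1923 CPM and the Yap1 target Ankrd1 at 326 CPM, and tumour 2 held them at 19.3 and 1.67 CPM. Without CC053-A1 the Hippo median was 0.388, the mesenchymal median 0.576 and the matrix median 0.628. The Hippo brake Nf2 was the steadiest member, at an SD of 0.17 and 59.3 to 179 CPM.

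Smooth muscle genes reached a median SD of 1.01 (SE 0.126) over 9 members. Without Boon-H2 the median was 0.8975, and in mice of one trace division it was 0.946. The smooth muscle myosin Myh11 had 61.6% of its variance within mice and was at 1.41, 4.97 and 204 CPM in Boon-H2 and at 5.85 and 535 CPM in PEF2-G2. Tumour 2 of PEF2-G2 was high for Krt8, Myh11 and Muc2 together. Endothelial genes were steadier, with a median SD of 0.530 and the highest value, 0.83, in the clotting factor carrier Vwf.

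Proliferation genes were close in most mice. The median SD of 30 cell cycle genes was 0.603 (SE 0.171), none reached 1, and the score spread by more than 1 in 5 mice with a median of 0.290. A median of 41.3% of the variance lay within mice and 9.59% between mice of a strain, and 11 of 30 members had more than 50% within mice, against 8.54% of all genes. Mki67 was at 390, 29.8 and 324 CPM in CC059-E2, and the centromere protein Cenpf at 89.9, 6.42 and 92.7 CPM, each lowest in the lung-rich tumour 2. That mouse supplied 40.4% and 46.7% of the sums of squares, and without tumour 2 the median SD of the list was 0.433. Mki67 was also low in 1 tumour of KAV-A3, at 92.7 against 325 CPM, and in tumour 3 of Boon-H2, at 136 against 400 and 534 CPM.

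Hypoxia genes varied within mice and between mice of a strain, with almost no part between strains. Their median SD was 0.637 (SE 0.0782), with 34% of the variance within mice, 51.6% between mice and 0.0472% between strains. The vascular peptide adrenomedullin (Adm) and the carbonic anhydrase Car9, both induced by low oxygen, had SDs of 1.17 and 1.10. Adm was at 102, 9.93 and 5.32 CPM and Car9 at 52.3, 2.78 and 3.57 CPM in the 3 tumours of CC059-E2, where tumour 1 was the high one. In CC001-H2 Adm was at 165 and 23.03 CPM and the angiogenic factor Vegfa at 1087 and 292 CPM. Car9 was at 79.1 and 8.49 CPM in MEE-E2.

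Some stress and metabolic programmes stayed near the median of all genes, while immediate early genes stood higher, at a median SD of 0.595. Cholesterol synthesis had a median SD of 0.423, the unfolded protein response 0.375 and heat shock 0.356, and none of their 17, 16 and 12 members reached 1. NRF2 antioxidant targets stood higher at 0.698, with 5 of 12 members above 50% within mice, against 8.54% of all genes, among them the glutathione transferase Gstm1 at 68.8%. Gstm1 was highest, at 536 CPM, in the lung-rich tumour of CC059-E2, and that mouse supplied 45% of its sum of squares.

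Tumour suppressors were among the steadiest genes within a mouse. The 13 members had a median SD of 0.266 (SE 0.0551), and their score spread by more than 1 in 0 mice. Bap1, a deubiquitinase often lost in mesothelioma, had an SD of 0.15 and was at 38.96 to 98.94 CPM. Cdkn2a, whose products keep the Rb and p53 pathways active, ranged from 0.314 to 563 CPM over the 70 tumours, yet 90.9% of its variance lay between mice of a strain and 6.10% within mice. All 6 tumours of CC074-B3 were at 0.314 to 0.882 CPM. In MEE-B1 both were high, at 563 and 529 CPM, and in MEE-E2, a mouse of the same strain, both were low, at 2.77 and 4.81 CPM. Larger gaps within a mouse were seen in CC053-A1, at 174 and 16.3 CPM, and in CIS-G3, at 317 and 74.7 CPM. Mtap, next to Cdkn2a on the chromosome, was at 538, 34.8 and 1094 CPM in CC059-E2, which supplied 76.7% of its within-mouse sum of squares.

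Several programmes moved together from tumour to tumour. Over the 70 deviations of a tumour's score from its mouse's mean, Pearson's r was 0.944 for B cell and lymphoid structure scores (Spearman 0.838, and r = 0.903 without the 2 most extreme tumours). It was 0.897 for cell cycle and splicing scores (0.861 and 0.861), 0.780 for neutrophil and cytokine scores (0.725 and 0.763) and 0.752 for hypoxia and immediate early scores (0.717 and 0.701). Mesothelial and cell cycle scores went in opposite directions (r = -0.539, Spearman -0.636, and -0.535 without the 2). These values describe tumours that share mice, libraries and a fixed total, and each score pair shares its library. In a mouse with 2 tumours the deviations mirror each other, so the 70 values hold 41 degrees of freedom. The 2 most extreme tumours can thus be those of 1 mouse. The pairs of lists named here are some of all pairs for which a correlation was computed.

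Most genes differed between mice of one strain by more than tumours of one mouse did. In the edgeR quasi-likelihood test with Benjamini-Hochberg adjustment 11247 of 12571 genes passed an adjusted p of 0.05, or 89.5%, so membership of a list among the called genes says little. Of 14 Hippo genes all 14 passed, of 13 tumour suppressors all 13, of 20 matrix genes all 20, of 18 hypoxia genes all 18 and of 21 T cell genes all 21. Of the 30 cell cycle genes 10 passed. Lower counts than most were also found for reproductive (2 of 5), adipocyte (3 of 6), intestinal (4 of 6), interferon gamma (13 of 19) and oxidative phosphorylation genes (14 of 19). The cell cycle members that did not included Top2a, the replication topoisomerase (adjusted p = 0.277), Cdk1, Aurkb, Foxm1, Birc5 and Cenpf. Without the strains CC044 and CC053, 7756 genes passed (62.9%). Since the tumours of most mice carry consecutive library numbers, handling may add to these differences between mice, which was not tested.

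Rab3gap1, a regulator of the vesicle GTPase Rab3, was high in all tumours of 2 mice and had the lowest p between mice among genes with an established symbol (edgeR quasi-likelihood test, adjusted p = 2.46e-20). It was at 2002, 2386 and 1241 CPM in CC044-F4 and at 688 and 582 CPM in CC053-G3, and its median over the 70 tumours was 94.0 CPM. The ciliary protein gene Rpgrip1l (adjusted p = 3.55e-20) and the amino acid transporter Slc38a6 (adjusted p = 2.48e-15) followed in the same test.

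Between strains, beyond the spread of mice, 912 genes passed in the same kind of test on counts summed per mouse, or 7.25%. Lymphocyte lists were called above that share, with 12 of 13 B cell genes, 17 of 21 T cell genes, 10 of 12 lymphoid structure genes and 9 of 19 interferon gamma genes. Other lists above it included mesothelial (4 of 17), cell cycle (5 of 30), complement (3 of 13) and p53 target genes (3 of 15). All 15 skeletal muscle genes and 5 of 6 intestinal genes also passed, lists whose richest libraries came from strains with 1 mouse each. None of the Hippo, matrix, tumour suppressor, hypoxia, macrophage or endothelial genes did. The number of strain calls depends on the method, from 218 with limma-voom to 5722 with DESeq2, and was 74 in the 20 mice of one trace division. Amd2, related to a polyamine synthesis enzyme, had the highest share between strains, 93.7% (edgeR adjusted p = 0.000211). It was at 19.3 to 37.1 CPM in the 11 tumours of CC044 and at 34.9 to 40.1 CPM in those of CC035, against 0.711 to 1.31 CPM in those of CC059.

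Among genes with a total SD of at least 1, those with the highest share within mice formed 2 groups. Dram1, a p53-induced autophagy gene (94.1%), the membrane protease Mmp15 (91.4%), Selenbp1 (87.5%) and the histamine-forming enzyme Hdc (87.2%) were highest in tumour 2 of CC059-E2. Dram1 was at 8.12, 1249 and 9.34 CPM in that mouse, and its SD fell from 1.00 to 0.44 without that library. Lsm8, an RNA-binding protein (99.0%), St7 (89.4%) and Capza2, an actin capping protein (86.5%), lie close together on chromosome 6 and were high together in some tumours. The eighth gene, Fam177a (96.1%), was at 0 CPM in 3 single tumours of 3 mice and had a median of 39.4 CPM. Such zeros can come from the assignment of reads to similar transcripts, so its value is uncertain.

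That neighbourhood led to a search for runs of adjacent genes, which was added after these values had been seen. A run was at least 8 consecutive tested protein-coding genes, each at least 2-fold higher in the same tumour of a pair. Over the 59 within-mouse pairs 46 runs were found, in 21 regions and 11 mice. Positions are from GRCm38 with GENCODE M21 gene models. DNA copy number was not measured, and the genes named from here on were chosen after their values were seen.

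The run seen in the most mice lay at chr6:16833373-21852515, from Tfec to Tspan12. It holds the caveolin genes Cav1 and Cav2, the hepatocyte growth factor receptor Met, Capza2, St7, Wnt2, Cftr and Lsm8. It was found in 5 mice and 12 pairs. In tumour 2 of Boon-H2, 11 genes were higher than in tumour 1 by a median of 6.03 on the log2 scale, and Capza2 was at 183, 19400 and 243 CPM in tumours 1, 2 and 3. In CIS-E2 Capza2 was at 6593 CPM in tumour 1 and 307 CPM in tumour 2, and Met at 3830 and 213 CPM.

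The same genes stood out in 1 tumour each of CC036-F1, CC053-A1 and CC059-B1 and in 2 of CC074-B3. Capza2 was above 1000 CPM in 7 of the 70 tumours, at 1759 to 19400 CPM, and at 168 to 427 CPM in the other 63, with no overlap. Met was above 1000 CPM in those tumours and in tumour 3 of Boon-H2, at 1095 to 8253 CPM, and at 11.6 to 343 CPM in the rest. In each of the 6 mice another tumour of the same animal lacked the high level of Capza2. The extent differed between mice: Lsm8 was at 2095 CPM in tumour 2 of Boon-H2 but at 23.2 CPM in tumour 2 of CC036-F1, where the run ended at Cftr. In CC059-B1 the run had 7 genes and fell below the limit.

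**Figure D5:**
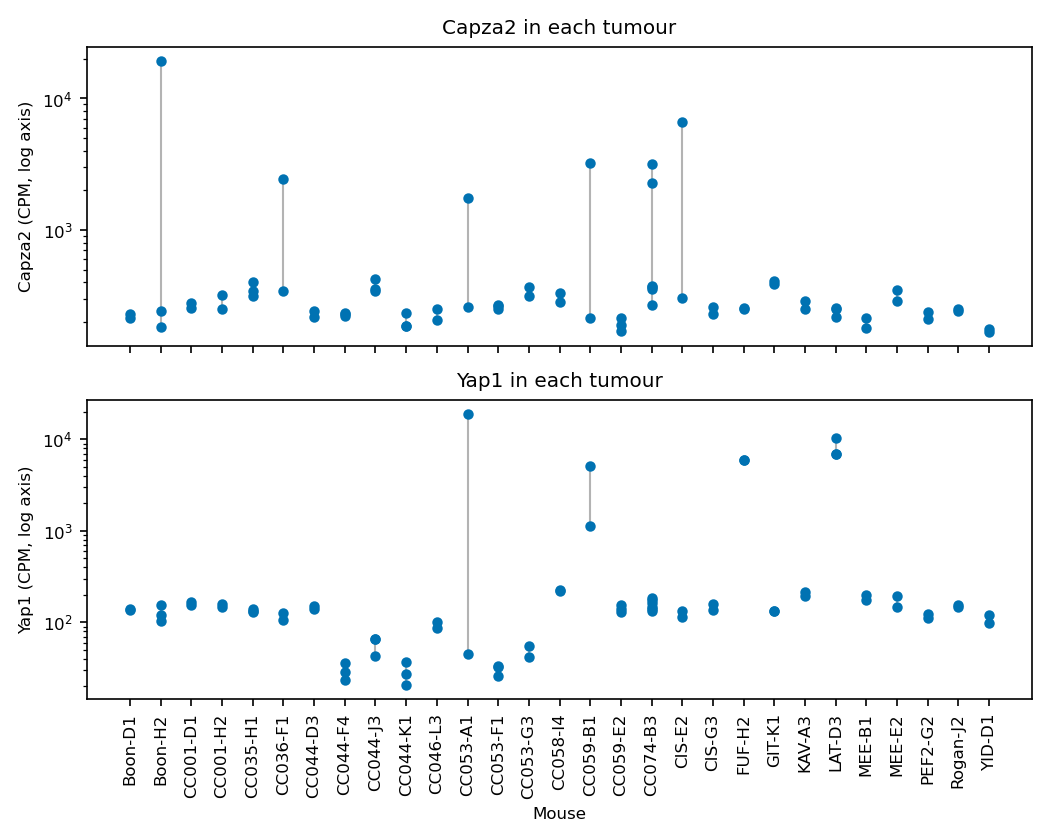
Levels of Capza2 and Yap1 (y axes, CPM, log axes) in each tumour, shown as points joined by a line for each mouse. Capza2 exceeds 1000 CPM in 7 tumours, each with a lower tumour in the same mouse, and Yap1 exceeds 1000 CPM in 8 tumours, 7 of them from mice in which all tumours do.

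A second region, chr9:5345430-13245829, holds Yap1, the apoptosis inhibitors Birc2 and Birc3 and a cluster of matrix metalloproteinases. Tumour 1 of CC053-A1 had 16 genes higher than tumour 2, by a median of 5.67 on the log2 scale, with Yap1 at 19170 against 44.8 CPM, Birc2 at 3589 against 131 CPM and Tmem123 at 12530 against 535 CPM. Yap1 was above 1000 CPM in 8 tumours of 4 mice, at 1145 to 19170 CPM, and at 20.7 to 229 CPM in the other 62. Outside CC053-A1 the high level was shared by all tumours of a mouse, at 5994 and 5924 CPM in FUF-H2, 10290, 6936 and 6848 CPM in LAT-D3, and 5117 and 1145 CPM in CC059-B1. The limit of 1000 CPM was set after the values had been seen. In CC059-B1 too a run was found, in which 11 genes were higher in tumour 1 by a median of 2.48 on the log2 scale, and Yap1 differed 4.47-fold.

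Other runs included related genes that lie side by side, such as the Gimap genes of lymphocytes (3 mice), the Ifi200 family of interferon-induced genes (3 mice), the Irgm and Tgtp interferon GTPases (4 mice), the class II genes (CC053-A1, a median of 5.09 on the log2 scale over 12 genes) and the Serpina1 cluster of liver proteins (MEE-E2, a median of 9.05 over 9 genes). Some of these runs also hold other genes, such as Gpnmb in that of the Gimap genes.

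Genes of the Y chromosome were compared with the mouse labels. Eif2s3y was above 5 CPM in every tumour of 14 mice (lowest 5.48 CPM) and at or below 5 CPM in every tumour of 15 (highest 2.74 CPM), and in 0 mice were both kinds present. The limit was set after the values had been seen, between 2.74 and 5.48 CPM, so the count of 0 mice depends on that choice. An exchange between mice on the same side of the limit would not be seen. Of the variance of the 4 Y-linked genes a median of 6.13% lay within mice. In CC074-B3 they nonetheless varied together: Ddx3y was at 53.8, 104, 84.5, 21.6, 160.5 and 162 CPM in its 6 tumours, a 7.50-fold span, and the spans of Uty, Kdm5d and Eif2s3y were 7.23-fold, 8.04-fold and 8.56-fold.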

How the data were processed

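The authors deposited a table of estimated counts per gene, given as whole numbers, from bulk RNA-seq of whole tumours. Per the submitters' processing notes the tools were kallisto 0.46.1, DESeq2 and DESeq, with GRCm38. The sources used here name neither their settings nor the gene annotation's release. A second deposited table held 3682183 cells, all equal to the same cells of the first, and was not used. Symbols and positions of 35825 of 36118 genes came from GENCODE M21. Of 167 columns, 165 were matched to one sample and 2, of the mouse GIT-K1, to the mouse only.

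The 70 libraries held 15946306 to 35399287 counts. Log2 CPM used TMM factors and a prior count of 2, over 12571 genes with a mean of at least 5 CPM. Variance was split by a nested analysis of variance (method of moments, parts below 0 set to 0), with jackknife SEs over mice. Tests were edgeR 4.0.16 quasi-likelihood F tests (R 4.3.3) with Benjamini-Hochberg adjustment at 0.05, and permutation tests with 100000 permutations. limma 3.58.1, DESeq2 1.42.0, lme4 1.1.37 and other filters, priors, scalings and sets of libraries served as alternatives. Small tables and figures were made in Python 3.11.15.

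On simulated data with 12571 genes, of which 100 were changed at each size, the test between mice recovered 89% of 2-fold and 100% of 4-fold changes with 13 unchanged genes called. The test between strains recovered 100% of both with 22 unchanged genes called. These rates hold for the simulated data only. What the test between strains recovers at the spread between mice measured here was not tested. Tumour numbers do not pair tumours of different mice: over 378 pairs of the 28 mice with tumours 1 and 2, the correlation of deviations ran from -0.395 to 0.632 (median -0.00345), with 74 above 0.1.

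Genes were named by rule, among those whose symbol is not a predicted gene, clone name or pseudogene: the 12 of highest SD, the 12 of highest median range, the 6 of lowest SD, the 8 of highest within-mouse share with a total SD of at least 1, the 8 of lowest p between mice, the 6 of highest strain share, and in each list the 3 of highest and 1 of lowest SD. Other genes in the text are fixed cell type markers or were chosen after their values were seen. Not all genes the rule selects are described, and some results are not reported here. The members and gene lists were chosen with earlier results of these data known.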

Additional observations from a re-analysis of the deposited data

Results flagged for a closer look

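In CC074-B3, the mouse with 6 tumours, 86 list scores and named genes were checked for a single tumour far from the other 5, by the gap to the nearest tumour over the whole range, against Dixon's 95% limit for 6 values. Chance puts about 1 in 20 of the checks past the limit, and 9 of the 86 were. The smooth muscle score of tumour 2 was 1.53 against -1.17 to -0.56 in the others (ratio 0.771). In that tumour the smooth muscle actin Actg2 was at 64.1 CPM, and in the others at 2.29 to 5.65 CPM. The cholesterol synthesis score of tumour 1 was -0.79 against 0.31 to 0.77 (ratio 0.704).

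The NRF2 score of tumour 9 was -0.20 against 0.23 to 0.41 (ratio 0.714), and its intestine score was -0.79 against -1.61 to -1.34 (ratio 0.672). The amylase genes Amy2a2, Amy2a3 and Amy2a4 were low in tumour 8, at -3.54 on the log2 CPM scale against -0.28 to 0.77 (ratio 0.756 for each). They are near-identical copies with identical values, so they count as 1 finding and their levels are uncertain. Mmp15 was low in tumour 1, at 2.66 against 3.65 to 4.0 (ratio 0.744), and Amd2 likewise, at 0.99 against 1.36 to 1.51 (ratio 0.7).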

How the results depend on the processing

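The survival difference, which did not pass its test, changed sign without CC053-A1, and no other result changed direction. The median within-mouse SD of 0.335 became 0.406 with a mean of at least 1 CPM, 0.4003 with no filter and 0.382 with the 7 libraries kept, and ran from 0.312 to 0.345 when a mouse or tumour was left out. The within-mouse share of 27.4% became 45.4% with no filter, 35.5% with the 7 libraries and 32.5% in strains with at least 2 mice, and ran from 24.5% to 28.8% with a mouse or tumour left out. The 912 genes called between strains became 5722 with DESeq2, 218 with limma-voom, 1523 with a mean of at least 1 CPM, 571 without libraries over 1% other tissue and 74 in mice of one trace division. They ran from 495 without CC044-K1 to 2828 without CC044-D3, and were 574, 597, 505, 575 and 576 without Boon-D1, Boon-H2, CC044-F4, CC044-J3 and CC053-G3. The cause was not tested. The genes called between mice ran from 10207 without CC044-D3 to 11362 without CC059-E2, and the tumour number as a replicate block gave 11093. With a mouse or tumour left out, lists with a median SD of at least 1 numbered 10 to 13, and without strain CC044 14. With a mouse or strain left out, the distance difference was 0.164 to 0.235 (permutation p 1e-05 to 2e-05), and with a mouse left out the survival difference was -0.0599 to 0.0103. In mice of one trace division 10 lists reached 1, and the distance difference was 0.384 (permutation p = 0.00016). With the 7 libraries kept, 77 runs of neighbouring genes were found in place of 46. The alternatives for trace divisions, single libraries or mice, and runs were chosen after seeing the data. With 2 tumours in most mice, a gene's own share is imprecise, and at the depth of these libraries genes below 5 CPM were left out.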

Other observations

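Red blood cell genes were uneven within many mice, with a score spread above 1 in 14 of 29. The 5 tested erythroid genes had a median within-mouse SD of 1.10 (SE 0.18), and all 5 reached 1, against 7.2% of all genes. The beta globin gene Hbb-bs differed more than 2-fold in 19 of 29 mice, and the alpha globin gene Hba-a1 was at 427, 21.6 and 798 CPM in the 3 tumours of Boon-H2. Without that mouse the list's median was 0.949, and in mice of one trace division it was 0.881. Among complement genes, 3 of 13 reached an SD of 1. Of these Cfd is also a fat cell gene and Cfi, a complement protease mainly from the liver, was highest, at 200 CPM, in the hepatocyte-rich tumour 1 of CC059-B1. The neurofilament gene Nefl was at 241 and 1.02 CPM in CIS-E2, and Star, which starts steroid hormone synthesis, at 2111 and 30.04 CPM in CC044-D3.

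Ribosomal protein genes had a median SD of 0.312 (SE 0.0332). The highest was Rps6, at 0.58, for which LAT-D3 held 35.9% of the sum of squares, with 404, 557 and 76.1 CPM in its tumours 1, 3 and 4. The heat-inducible chaperone Hspa1a was at 178, 12.6 and 13.01 CPM in the same tumours. Runs of neighbouring genes not all of one family were also found in 2 other places. At chr5:4753839-7982213, from Fzd1 to Steap4, CC053-A1 had a run of 8 genes (a median of 4.88 on the log2 scale). It includes the related genes Steap1, Steap2 and Steap4. At chr4:119733784-122886056, from Hivep3 to Cap1, CC058-I4 had a run of 10 genes (a median of 1.46). DNA copy number was not measured.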
